A study of Homo sapiens with 26 samples.

Results

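Members of 3 protein groups that cut or protect the extracellular matrix were examined: 7 matrix metalloproteinases (MMP1, MMP2, MMP7, MMP9, MMP10, MMP13 and MMP14), 2 of their tissue inhibitors (TIMP1 and TIMP2) and the urokinase gene PLAU. They were taken by symbol, 10 of the 26485 genes in each of 5 tables of normalised read counts. The mRNA-seq libraries numbered 26 and came from 3 established human cell lines of esophageal squamous cell carcinoma (ESCC), KYSE180, TE6 and KYSE150. In KYSE180, a control siRNA (siCont) was compared with an siRNA against BRDT (siBRDT, n = 3 each) and, in a separate experiment, with an siRNA against TP63 (siTP63, n = 2 each). In TE6, siCont, siBRDT and siTP63 (n = 2 each) stood in 1 table, so both knockdowns share the same control libraries. KYSE150 had siCont and siTP63 (n = 2 each) and, in another experiment, control-vector cells and cells given a BRDT plasmid by electroporation (BRDT-OE, n = 3 each). RNA was taken 48 h after siRNA transfection, and KYSE150 grew in 5% and the other lines in 10% serum. The labels do not say which siRNA sequence each library received or whether replicates were separate cultures, so p-values measure the spread between these libraries, which may be technical. BRDT is a testis-restricted member of the BET family, whose proteins bind acetylated histones and aid transcription, and TP63 encodes p63, the transcription factor of squamous basal cells. The question was how far each of these matrix genes depended on BRDT and on p63 in each line.

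Matrix metalloproteinases (MMPs) are zinc enzymes made as inactive proforms and used by cells to cut collagen, gelatin, laminin and other matrix proteins. The collagenases MMP1 and MMP13 cut fibrillar collagen, MMP10 is a stromelysin with a broad range of substrates, and MMP7 is the small matrilysin of glandular epithelium. MMP2 and MMP9 are the gelatinases. MMP14 sits in the plasma membrane and, with TIMP2 as a bridge, activates the proform of MMP2, so that TIMP2 can both inhibit MMPs and help to activate one. TIMP1 inhibits most secreted MMPs. Urokinase turns plasminogen into plasmin, which cuts fibrin and activates several MMP proforms. In squamous carcinomas these enzymes are known for their part in invasion.

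MMP7, MMP10, MMP1 and MMP13 lie in 1 cluster on chromosome 11 (hg38, GENCODE release 44), all on the minus strand: MMP7 at chr11:102520508-102530750, MMP10 at chr11:102770502-102780628, MMP1 at chr11:102789401-102798160 and MMP13 at chr11:102942995-102955732. The others are spread over the genome, with MMP2 at chr16:55389700-55506691, MMP9 at chr20:46008908-46016561, MMP14 at chr14:22836560-22849041, TIMP1 at chrX:47582408-47586789, TIMP2 at chr17:78852977-78925387 (minus strand) and PLAU at chr10:73909177-73917496. RefSeq promoter windows (GRCh38.p14, 250 bases before to 50 after a start site) matched 5 of the 10 genes, in 6 windows, and MMP1, MMP2, MMP9, MMP13 and TIMP2 had no entry. The windows shown 5' to 3' belong to a gene that fell under both knockdowns in KYSE180 (MMP10), to another gene of its cluster with hardly any reads (MMP7), to the gene that rose under both (MMP14) and to a gene that moved in opposite directions (PLAU). Capitals mark matches, on either strand, to the AP-1 motif TGANTCA, to the ETS motif of PEA3 type AGGAAG, to the TATA box TATAAA and to the GC box GGGCGG.
MMP10 (chr11:102780579-102780878, minus strand): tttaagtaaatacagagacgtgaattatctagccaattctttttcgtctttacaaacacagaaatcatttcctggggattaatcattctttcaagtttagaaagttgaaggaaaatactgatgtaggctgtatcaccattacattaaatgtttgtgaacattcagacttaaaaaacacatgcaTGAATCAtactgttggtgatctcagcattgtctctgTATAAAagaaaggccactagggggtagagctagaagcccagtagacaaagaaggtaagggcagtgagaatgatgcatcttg
MMP7 (chr11:102530698-102530997, minus strand): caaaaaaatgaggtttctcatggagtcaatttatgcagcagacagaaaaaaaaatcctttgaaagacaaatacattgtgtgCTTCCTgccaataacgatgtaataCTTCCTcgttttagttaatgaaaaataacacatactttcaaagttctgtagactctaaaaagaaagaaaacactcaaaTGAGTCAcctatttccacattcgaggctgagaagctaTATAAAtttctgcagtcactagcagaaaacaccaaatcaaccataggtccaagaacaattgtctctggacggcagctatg
MMP14 (chr14:22836335-22836634, plus strand): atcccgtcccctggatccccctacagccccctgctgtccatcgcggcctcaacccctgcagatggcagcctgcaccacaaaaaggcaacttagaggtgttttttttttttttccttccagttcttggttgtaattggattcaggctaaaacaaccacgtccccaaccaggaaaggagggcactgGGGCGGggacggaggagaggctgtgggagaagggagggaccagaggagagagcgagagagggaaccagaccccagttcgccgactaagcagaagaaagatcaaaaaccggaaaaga
PLAU (chr10:73910882-73911181, plus strand): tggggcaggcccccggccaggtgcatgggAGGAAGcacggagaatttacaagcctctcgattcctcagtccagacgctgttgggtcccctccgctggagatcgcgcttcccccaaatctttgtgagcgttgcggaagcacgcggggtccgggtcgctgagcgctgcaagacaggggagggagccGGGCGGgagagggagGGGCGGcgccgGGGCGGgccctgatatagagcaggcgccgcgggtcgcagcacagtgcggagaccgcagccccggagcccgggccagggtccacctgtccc

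The AP-1 match began 67 bases before the start site in MMP10 and also 67 bases before it in MMP7, where 7.71% of 35116 RefSeq windows hold such a match. A TATA match followed at 31 bases in MMP10 and at 30 bases in MMP7 (11.5% of windows). MMP7 also had ETS matches at 169 and 145 bases (33.6% of windows), which the MMP10 window did not. The MMP14 window held 1 GC box at 66 bases (45.0% of windows) and neither an AP-1 nor a TATA match. PLAU had GC boxes at 66, 51 and 40 bases and an ETS match at 221 bases, while its second window held none of these letters. TIMP1, not shown, had an ETS match at 87 bases and GC boxes at 135 and 45 bases. The p53 family half-site, present in 6.63% of windows, was matched in none of the 6. These are matches of letters, and binding was not measured here.

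One library stood apart, siBRDT replicate 1 of TE6, which had reads in 20995 genes where its replicate had them in 16817 and the other libraries in 15314 to 18972. Without it the siBRDT changes in TE6 were -0.68 for MMP2, -1.05 for TIMP2, -0.96 for PLAU and 0.80 for MMP14, all still called. The siTP63 and siCont pairs of KYSE150 differed most between replicates, with a chi-square per degree of freedom of 64.1 and 35.4, where the other pairs had 1.84 to 25.0. The libraries held 7582089 to 19372441 reads, and a count of 0 allows up to 0.155 to 0.396 reads on the reads-per-million (RPM) scale by counting error alone. On the log2 scale BRDT changed by -2.75 (KYSE180) and -2.23 (TE6) under siBRDT and by 10.60 in BRDT-OE, and TP63 changed by -1.70 in KYSE180 and -4.45 in TE6 under siTP63. In KYSE150 the TP63 difference under siTP63 was -2.34 (adjusted p = 0.082). TP63 itself also fell under siBRDT, by 0.58 in KYSE180 and 1.15 in TE6. All 7 squamous markers were above 1 RPM in every group. Markers of fibroblasts, another common source of these enzymes, summed to 3.8 to 120 RPM over 6 genes. Of the 6, 1 to 4 were above 1 RPM in each group, and DCN was at 0 reads in 7 of the 11 groups. In the TP63 experiment of KYSE180 that sum was 36.1 to 39.7 RPM with siCont and 68.7 to 80.01 RPM with siTP63, and in BRDT-OE it was 4.5 to 5.5 RPM beside 9.4 to 10.4 RPM. The squamous sum was lower in the knockdowns, at 5168 to 5364 RPM with siBRDT and 8345 to 8960 RPM with siCont in KYSE180, and at 4995 to 5008 RPM with siTP63 and 7896 to 8166 RPM with siCont. In TE6 it was 5754 to 5789 RPM with siCont, 2608 to 2897 RPM with siBRDT and 1129 to 1214 RPM with siTP63, and in KYSE150 1923 to 2250 RPM with siCont and 822 to 865 RPM with siTP63. The sum of 5 leukocyte markers was lower under siBRDT in KYSE180 (22.7 to 27.01 RPM beside 48.5 to 57.1 RPM) and TE6 (19.8 to 21.2 RPM beside 35.6 to 37.3 RPM), under siTP63 in KYSE180 (13.5 to 15.2 RPM beside 29.1 to 31.9 RPM) and TE6 (6.5 to 9.6 RPM), and in BRDT-OE (79.7 to 83.8 RPM beside 97.9 to 113 RPM). The sum of 3 endothelial markers was higher under siTP63, at 11.3 to 12.1 RPM beside 1.4 to 2.1 RPM in KYSE180, 7.8 to 9.8 RPM beside 4.2 to 5.8 RPM in TE6 and 5.4 to 11.4 RPM beside 0.80 to 1.7 RPM in KYSE150. Of the 5 leukocyte markers, 1 to 2 were above 1 RPM in each group, and of the 3 endothelial markers 0 to 1. PTPRC, the general leukocyte gene, was at 0 reads in 6 of the 11 groups. The squamous list holds TP63, the target of siTP63, which also fell under siBRDT. It also holds KRT14, which the paper reports as lower after depletion of BRDT or p63. These libraries came from cell lines, and the part of the marker shifts in the results was not tested. In such bulk libraries, fewer cells that express a gene and less RNA per cell cannot be told apart.

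In the control groups, all given a control siRNA or a control vector, the leading members differed between the lines. Levels were set on a per-length scale, as RPM per kb of exon, and are given side by side because each table was normalised alone. KYSE180 controls of the BRDT experiment were led by MMP10 at 49.9 ± 3.65 RPM per kb and MMP14 at 29.8 ± 1.69 RPM per kb (SD, n = 3). MMP1 at 15.6 ± 0.67 and MMP2 at 14.6 ± 0.26 RPM per kb followed, with overlapping libraries, and the next levels were TIMP2 at 11.7, TIMP1 at 8.63, PLAU at 7.11 and MMP13 at 6.97 RPM per kb. PLAU and MMP13 overlapped. MMP9 at 1.23 and MMP7 at 0.0286 RPM per kb closed the order.

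TE6 was dominated by an inhibitor. TIMP1 stood at 48.8 RPM per kb there, with the 2 siCont libraries at 46.0 and 51.6, and the next genes were MMP2 at 3.44, TIMP2 at 2.485 and PLAU at 1.78 RPM per kb. MMP14 (0.676), MMP1 (0.591), MMP10 (0.5045), MMP13 (0.436) and MMP9 (0.297) were all under 1 RPM per kb, and of these MMP1 overlapped in its libraries with MMP14, MMP10 and MMP13. KYSE150 cells of the overexpression experiment were led by TIMP1 at 82.2, MMP14 at 69.6 and PLAU at 65.1 RPM per kb, of which MMP14 and PLAU overlapped, followed by TIMP2 at 18.3 and MMP2 at 5.07 RPM per kb. MMP1 (0.485), MMP13 (0.210), MMP10 (0.203), MMP9 (0.118) and MMP7 (0.0562) were low there. The order of the first 5 genes was the same in the siCont cells of KYSE150, with TIMP1 at 109.8 RPM per kb. KYSE180 itself differed between its experiments. PLAU was at 7.11 RPM per kb in siCont cells of the BRDT experiment and 1.67 in those of the TP63 experiment. In the same order TIMP2 was at 11.7 and 3.31, and MMP13 at 6.97 and 0.961. The siCont cells of the TP63 experiment were led by MMP14 at 28.1 RPM per kb, before MMP10 at 22.8.

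**Figure D1:**
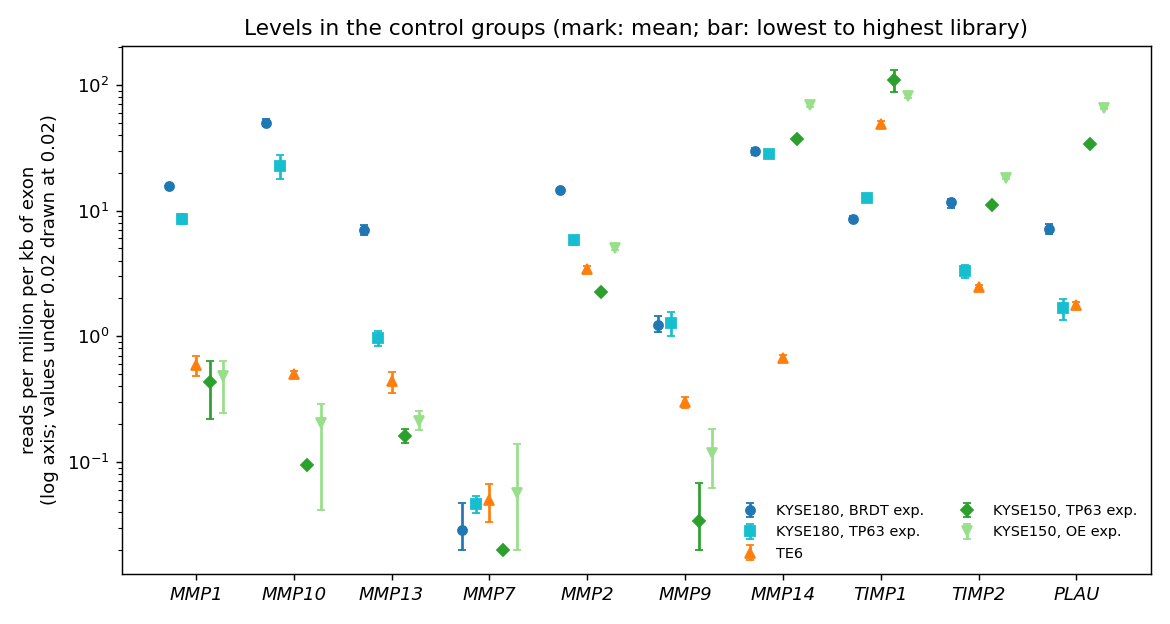
Levels of the 10 genes in the 5 control groups, in RPM per kb of exon on a log axis; marks are means and bars run from the lowest to the highest library (n = 2 or 3). MMP10 and MMP1 stand higher in KYSE180 than in the other lines, MMP14 is low in TE6 (0.676), and MMP7 lies near the bottom in every group.

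Genes were called changed when limma's adjusted p was under 0.05 and the log2 fold change was 0.5 or more in either direction. siBRDT in KYSE180 lowered 7 of the 9 tested genes (MMP1, MMP2, MMP10, MMP13, TIMP1, TIMP2 and PLAU) and raised 1 (MMP14), where 15.8% of all 13589 genes tested were called down and 14.5% up. In TE6, siBRDT lowered 3 of 9 (MMP2, TIMP2 and PLAU) and raised MMP14, against 18.1% of all genes called down and 15.6% up. siTP63 in KYSE180 lowered 3 of 9 (MMP1, MMP2 and MMP10) and raised 3 (MMP14, TIMP2 and PLAU), with 25.7% and 23.6% of all genes called down and up. In TE6, siTP63 lowered 2 of 9 (MMP1 and MMP2) and raised TIMP2, against 20.6% and 18.3%. BRDT-OE in KYSE150 raised 2 of 7 (MMP1 and MMP13) and lowered none, where 10.5% of genes were called up and 16.0% down. MMP13 passed the filter on low values, a mean of 10 over all libraries, only through the BRDT-OE group. Its mean count was 27.6 there and 8.88 in control cells. The balance of calls moved with the scaling. Of the genes called in KYSE180, 52.1% were down under siTP63 and 17.8% on the RPM scale, and 52.1% were down under siBRDT and 40.3% on the RPM scale. In TE6 siBRDT the share down was 53.8%, or 66.5% on the RPM scale and 17.8% after upper-quartile rescaling, under which the median of all genes was 0.24 and the falls of MMP2 (-0.67, adjusted p = 0.075), TIMP2 (-0.69, adjusted p = 0.067) and PLAU (-0.63, adjusted p = 0.20) were no longer called. In BRDT-OE it was 60.3%, or 77.2% and 71.6%.

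Under siTP63 in KYSE150 limma called 0 of 6 members and 0% of all 12335 genes. At an unadjusted p under 0.05, 2 of the 6 were higher (TIMP2 and PLAU) and 1 lower (MMP1), against 8.67% and 9.12% of all genes. edgeR called 0% of genes in either direction and DESeq2 1.62% up and 2.08% down, none of them a member. Same-numbered libraries of this experiment deviated in opposite directions (correlation -0.70), which may mean that the numbers are crossed, and with a crossed replicate block, chosen after seeing the data, MMP1 was called down (1 member) and TIMP2 and PLAU up (2 members). The median log2 fold change of the tested members was -1.45 under siBRDT in KYSE180, beside -0.01 over all genes, and lay between -0.46 and 0.30 in the other comparisons, beside -0.04 to 0.02. MMP7 passed the filter on low values in no table, MMP9 and MMP10 in 4 comparisons, MMP13 in 5 and the other members in all 6.

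**Figure D2:**
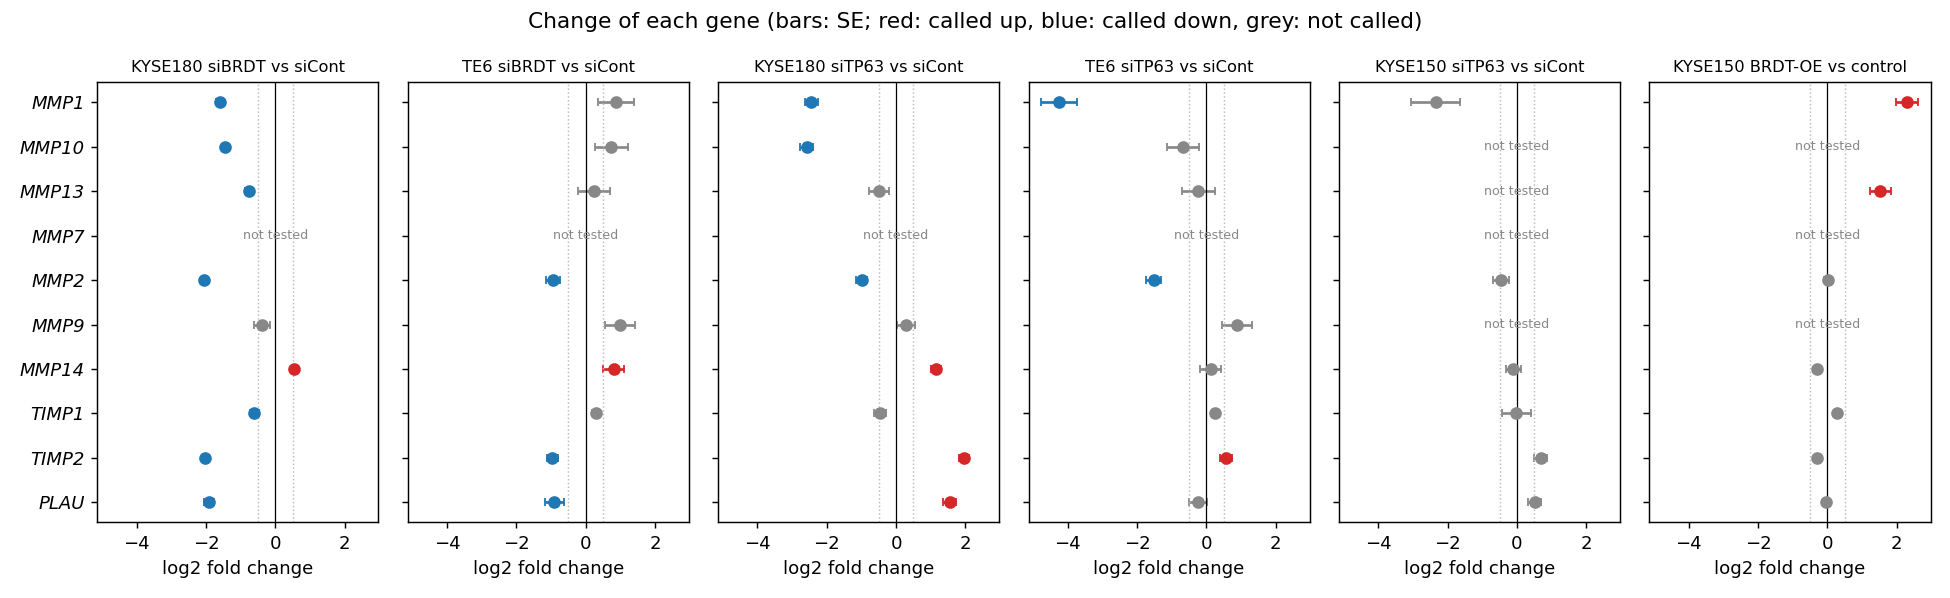
Log2 fold change of each gene against its control in the 6 comparisons, with points for the limma estimate and bars for its SE; red was called up, blue called down and grey not called, and dotted lines mark the limit of 0.5. TIMP2 and PLAU are blue under siBRDT and red under siTP63 in KYSE180, while MMP2 is blue in all 4 knockdowns of KYSE180 and TE6.

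MMP1, the interstitial collagenase, had normalised read counts of 451, 488 and 480 with siCont and 164, 159 and 143 with siBRDT in KYSE180. Every siBRDT library was below every control library, a log2 fold change of -1.60 ± 0.0911 (SE, adjusted p = 2.7e-09). With siCont of the TP63 experiment it stood at 442 and 352 and with siTP63 at 78.2 and 65.1, or -2.45 ± 0.186 (SE, adjusted p = 7.8e-11). TE6 expressed little MMP1. Its siCont libraries held 17 and 25 reads, siBRDT libraries 26 and 34, and siTP63 libraries 0 and 0 although they held 17331345 and 7582089 reads in all. Against the limit that 0 reads allow over the group, 0.120 RPM, MMP1 was at least 13.45-fold lower with siTP63 than the 1.62 RPM of siCont (adjusted p = 3.2e-05). The siBRDT difference of 0.88 ± 0.519 (SE) was not called (adjusted p = 0.19). In KYSE150 the collagenase was also low, with 7 and 22 reads in siCont and 5 and 1 in siTP63, a difference of -2.34 (95% interval -4.08 to -0.59, adjusted p = 0.19). BRDT-OE went the other way: control cells had normalised counts of 9.94, 25.5 and 24.1 and BRDT-OE cells 77.4, 100.6 and 105.5, without overlap, or 2.29 ± 0.319 (SE, adjusted p = 2.3e-04). The pseudogene WTAPP1 shares 223 exon bases with MMP1 on the opposite strand and held 0 to 19 reads per library, and whether the counting used strand is not given in the sources used here.

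MMP10, the stromelysin beside MMP1 in the cluster, led the members in the siCont cells of the BRDT experiment in KYSE180 and fell with MMP1 under both knockdowns of that line. Its counts were 1058, 959 and 909 with siCont and 348, 359 and 358 with siBRDT, or -1.45 ± 0.0762 (SE, adjusted p = 1.2e-09). Under siTP63 they were 110.4 and 109.6 against 544 and 809 in the controls, or -2.58 ± 0.178 (SE, adjusted p = 1.6e-11), so that the control libraries differed from each other but both lay far above siTP63. In TE6 MMP10 held 5 to 18 reads per library, and neither siBRDT (0.74, adjusted p = 0.22) nor siTP63 (-0.68, adjusted p = 0.25) was called. In KYSE150 it was under the filter, with 8, 8 and 1 reads in control cells and 13, 15 and 12 in BRDT-OE. Those BRDT-OE libraries lay above all 3 controls, at counts too low for the test.

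MMP13, a collagenase of cartilage and carcinoma, fell less. It had counts of 244, 214 and 200.1 with siCont and 149, 122 and 120.1 with siBRDT in KYSE180, or -0.75 ± 0.119 (SE, adjusted p = 7.7e-05). In the TP63 experiment its counts were 53.5 and 39.0 with siCont and 35.3 and 29.4 with siTP63, a difference of -0.49 that was not called (adjusted p = 0.15). In BRDT-OE it rose from 8.13, 7.55 and 10.96 to 20.6, 31.3 and 30.9, or 1.53 ± 0.296 (SE, adjusted p = 0.0017), from 8 to 10 reads per control library. TE6 showed overlapping groups, with 0.24 under siBRDT (adjusted p = 0.70) and -0.24 under siTP63 (adjusted p = 0.70). MMP7, on the far side of the cluster, held 0 to 5 reads in every library of the series, which gives no comparison.

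MMP2, gelatinase A, was the member that fell in every knockdown of KYSE180 and TE6. Counts of 772, 754 and 768 with siCont in KYSE180 became 197, 198 and 159 with siBRDT, or -2.05 ± 0.0932 (SE, adjusted p = 3.6e-10). In the TP63 experiment they went from 431 and 492 to 244 and 218, or -0.996 ± 0.159 (SE, adjusted p = 8.1e-06). The call of that second fall depended on the scaling of the libraries: on the RPM scale the median of all genes there was 0.52 and MMP2 was at -0.47, under the fold limit (adjusted p = 0.015). In TE6 MMP2 counts were 192 and 174 with siCont, 78.8 and 113.5 with siBRDT and 65.0 and 60.7 with siTP63. The fold changes were -0.94 ± 0.205 (SE, adjusted p = 0.0026) and -1.52 ± 0.205 (SE, adjusted p = 6.7e-05), and no treated library reached a control. In KYSE150, siTP63 gave 120.5 and 124 against 181 and 155.5 (-0.46, 95% interval -1.04 to 0.13, adjusted p = 0.37). BRDT-OE gave 0.01 (95% interval -0.20 to 0.22), with 348, 386.5 and 340.3 beside 350.5, 336 and 383 in control cells.

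MMP9, gelatinase B, was low everywhere and was called in no comparison. Its highest counts were in the TP63 experiment of KYSE180, at 62.9 and 39.0 with siCont and 66.7 and 55.6 with siTP63 (0.29, adjusted p = 0.36). siBRDT in KYSE180 gave -0.38 (adjusted p = 0.16). In TE6 the siCont libraries held 8 and 10 reads, siBRDT 19 and 11, and siTP63 18 and 13. Both treated groups lay above the controls, with differences of 0.99 (adjusted p = 0.087) and 0.88 (adjusted p = 0.12).

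MMP14, the membrane-anchored enzyme, rose in 3 of the 4 knockdowns of KYSE180 and TE6, all but siTP63 in TE6. In KYSE180 its counts were 1557, 1613 and 1421 with siCont and 2257, 2232 and 2175 with siBRDT, or 0.54 ± 0.0646 (SE, adjusted p = 5.1e-06). This value lies just over the fold limit and was 0.49 without siCont replicate 3. siTP63 took MMP14 from 2254 and 2147 to 4921 and 4891, or 1.16 ± 0.141 (SE, adjusted p = 1.6e-07). In TE6 the gene was far lower, with 36.9 and 33.6 in siCont and 62.6 and 62.1 in siBRDT, or 0.81 ± 0.297 (SE, adjusted p = 0.041). The adjusted p was 0.13 without siCont replicate 1 and 0.20 without siCont replicate 2. siTP63 in TE6 gave 52.4 and 28.1, which overlapped the controls (0.12, adjusted p = 0.75). KYSE150 held abundant MMP14, and neither siTP63 (-0.10, 95% interval -0.62 to 0.42, adjusted p = 0.84) nor BRDT-OE was called. In BRDT-OE it was lower in all 3 libraries, at 3833, 3987 and 3981 against 4909, 4558 and 4956, a difference of -0.29 under the fold limit (adjusted p = 0.0044).

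**Figure D3:**
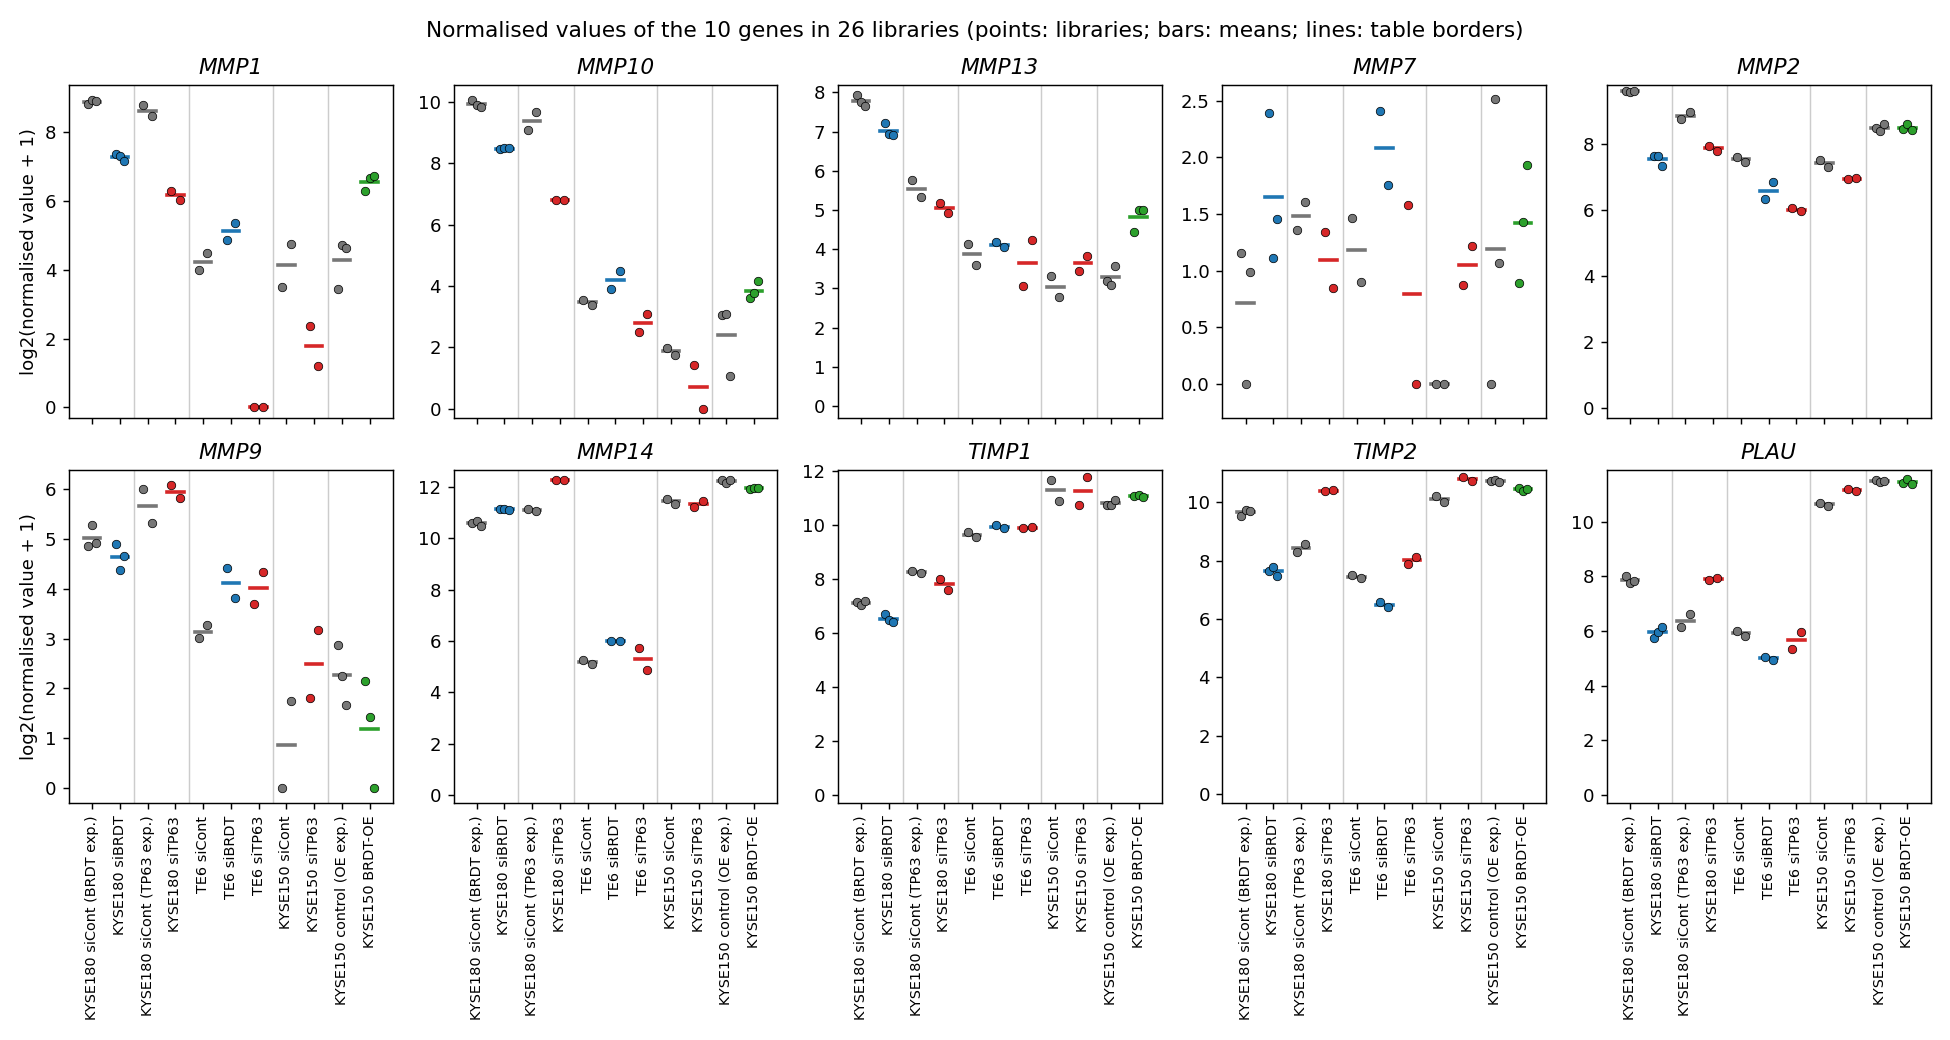
Log2(normalised read count + 1) of the 10 genes in all 26 libraries; points are libraries, bars are group means on that scale, vertical lines separate the 5 tables, and each panel has its own scale. MMP1 drops to 0 in both TE6 siTP63 libraries, and TIMP2 lies under its controls with siBRDT and over them with siTP63 in KYSE180 and TE6.

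TIMP2, the inhibitor that also takes part in MMP2 activation, moved in opposite directions under the 2 knockdowns. With siCont in KYSE180 it had counts of 731, 858 and 838.5 and with siBRDT 200.1, 221 and 178, or -2.02 ± 0.0961 (SE, adjusted p = 4.6e-10). In the TP63 experiment it went from 311 and 382 with siCont to 1344 and 1352 with siTP63, or 1.96 ± 0.147 (SE, adjusted p = 6.5e-11). All treated libraries lay outside the range of their controls in both. The controls themselves differed, with TIMP2 at 11.7 RPM per kb in siCont and 3.07 in siBRDT of the BRDT experiment. In the TP63 experiment it was at 3.31 in siCont and 18.45 in siTP63. TE6 showed the same order of groups, with 93.9 and 83.6 for siBRDT, 179 and 169 for siCont and 237.5 and 278 for siTP63. The fold changes there were -0.97 ± 0.162 (SE, adjusted p = 4.5e-04) and 0.56 ± 0.162 (SE, adjusted p = 0.012). The smaller of them was not called without siCont replicate 1 (adjusted p = 0.057), siCont replicate 2 (0.52, adjusted p = 0.10) or siTP63 replicate 2 (0.45, adjusted p = 0.13). In KYSE150, siTP63 libraries at 1878 and 1677 lay above siCont libraries at 1189 and 1028, a difference of 0.68 that was not called (adjusted p = 0.18). BRDT-OE gave 1439, 1332 and 1392 against 1691, 1722 and 1668, or -0.29, under the fold limit (adjusted p = 0.0046). CEP295NL, which shares 224 exon bases with TIMP2 on the same strand, held 0 to 7 reads.

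TIMP1, the general inhibitor, varied less. It fell in KYSE180 with siBRDT from 139.7, 131 and 145 to 102, 88.0 and 82.7, or -0.61 ± 0.125 (SE, adjusted p = 7.2e-04). siTP63 there gave 254 and 193 against 316 and 296, a difference of -0.46 under the fold limit (adjusted p = 0.022), which on the RPM scale was 0.06. In TE6 both treated groups were above siCont, by 0.30 with siBRDT (adjusted p = 0.041) and 0.26 with siTP63 (adjusted p = 0.069), both under the fold limit. With the trend on transcript length and GC content removed, these became -0.28 (adjusted p = 0.027) and -0.13 (adjusted p = 0.26), also under the fold limit. In KYSE150 the replicates of the TP63 experiment disagreed, with 3271 and 1879 in siCont and 1724 and 3468 in siTP63, so that a change could not be seen (-0.02, 95% interval -1.07 to 1.03). BRDT-OE gave 2129, 2218 and 2097 against 1711, 1689 and 1925, a difference of 0.28 under the fold limit (adjusted p = 0.0097).

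PLAU, the urokinase gene, followed TIMP2 in KYSE180. Its counts were 258.5, 213 and 226.5 with siCont and 53.2, 61.4 and 69.6 with siBRDT, or -1.91 ± 0.132 (SE, adjusted p = 2.0e-08). In the TP63 experiment 69.2 and 96.5 with siCont became 235 and 245.5 with siTP63, or 1.54 ± 0.197 (SE, adjusted p = 3.2e-07). The controls of PLAU differed too, at 7.11 RPM per kb in siCont and 1.99 in siBRDT of the BRDT experiment. In the TP63 experiment it was at 1.67 in siCont and 6.92 in siTP63. In TE6, siBRDT lowered it from 62.4 and 56.0 to 32.4 and 29.9, or -0.91 ± 0.270 (SE, adjusted p = 0.016), a call that was lost without siCont replicate 1 (adjusted p = 0.12) or siCont replicate 2 (adjusted p = 0.080) and with DESeq2 (adjusted p = 0.083). siTP63 in TE6 gave 39.8 and 62.1, on both sides of the controls (-0.24, adjusted p = 0.48). KYSE150 expressed PLAU strongly. There siTP63 libraries had 2349 and 2229 against 1663 and 1535, a difference of 0.52 (95% interval 0.05 to 0.98) that was not called (adjusted p = 0.24), and BRDT-OE gave -0.03 (95% interval -0.19 to 0.13). The noncoding gene C10orf55 shares 915 exon bases with PLAU on the opposite strand and held 0 to 100 reads.

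**Figure D4:**
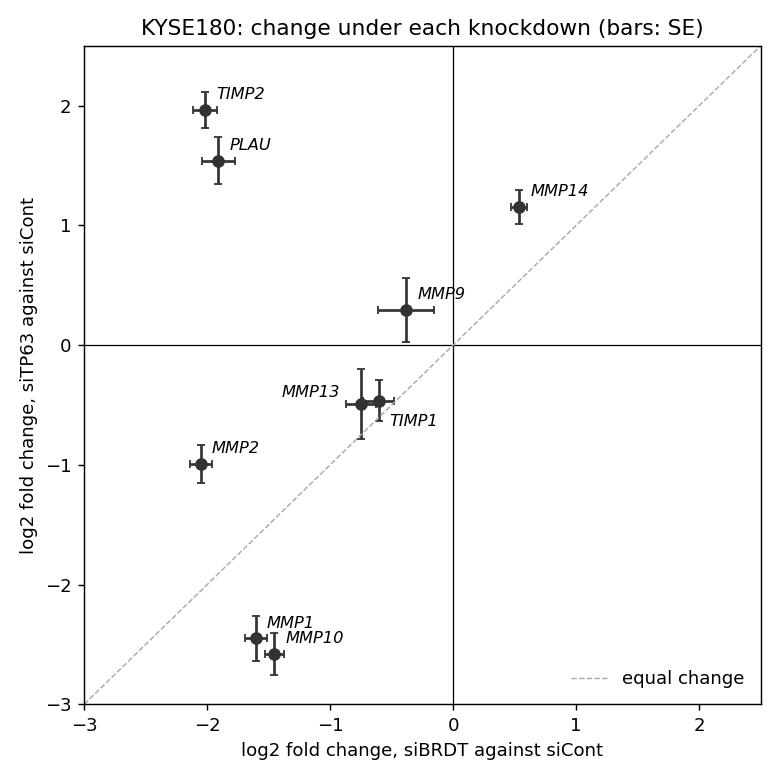
Log2 fold change of the 9 tested genes in KYSE180 under siBRDT (horizontal) and under siTP63 (vertical), from separate experiments with separate controls; bars are SE and the dashed line marks equal change. TIMP2 (-2.02 and 1.96) and PLAU (-1.91 and 1.54) lie in the upper left, and MMP1, MMP10 and MMP2 in the lower left.

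The fold changes of both knockdowns in KYSE180 were also set against each other, a test added after the values had been seen. The difference, siTP63 minus siBRDT, was 3.98 ± 0.165 for TIMP2 (SE, adjusted p = 1.4e-11) and 3.45 ± 0.232 for PLAU (SE, adjusted p = 2.3e-09). The siCont levels of TIMP2 and PLAU differed between the experiments, and the part of this in the differences was not tested. MMP10 (-1.13, adjusted p = 4.3e-05) and MMP1 (-0.85, adjusted p = 6.1e-04) fell further under siTP63. MMP2 (1.05, adjusted p = 2.4e-05) fell further under siBRDT, and MMP14 (0.62, adjusted p = 1.5e-04) rose further under siTP63. With 6 of 9 members past the threshold, 65.1% of all genes passed it. MMP13, TIMP1 and MMP9 did not pass, with differences of 0.26, 0.14 and 0.67 (95% interval of the last -0.09 to 1.44), but on the RPM scale all 3 did, at 0.68, 0.58 and 1.10. Within TE6, where both knockdowns share the controls, siTP63 minus siBRDT was 1.53 ± 0.162 for TIMP2 (SE, adjusted p = 1.9e-05), -5.12 for MMP1 on the fitted scale (adjusted p = 1.3e-05), -1.42 for MMP10 (adjusted p = 0.031) and -0.58 for MMP2 (adjusted p = 0.039). That made 4 of 9, with 39.2% of all genes. PLAU missed the threshold there (0.66, 95% interval 0.08 to 1.25, adjusted p = 0.069). Without 1 TE6 library, the difference was -1.71 to -1.13 for MMP10 and -0.84 to -0.32 for MMP2. Neither was called without siBRDT replicate 2, siCont replicate 1 or 2, or siTP63 replicate 1 or 2. With no filter both lost the call (adjusted p = 0.073 for MMP10 and 0.081 for MMP2). MMP2 also lost it on the RPM scale (-0.49, adjusted p = 0.069) and after upper-quartile rescaling (-0.78, adjusted p = 0.052).

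Cell lines differed in their responses. For siBRDT, TE6 minus KYSE180 passed the threshold for 8 of 9 members, where 41.9% of all genes did, each time with a higher value in TE6. Of the 8, MMP13 (0.99, adjusted p = 0.048) was lost with no filter, a pseudocount of 0.1, the RPM scale or upper-quartile rescaling and without any 1 of 7 libraries (siCont replicate 1, 2 or 3 or siBRDT replicate 2 or 3 of KYSE180, siCont replicate 2 or siBRDT replicate 1 of TE6; adjusted p up to 0.22). MMP9 (1.37, adjusted p = 0.022) was lost without any 1 of 4 (siCont replicate 2 or siBRDT replicate 2 of KYSE180, siCont replicate 1 or siBRDT replicate 1 of TE6; adjusted p up to 0.093). The difference was 2.48 ± 0.307 for MMP1 (SE, adjusted p = 9.0e-06) and 2.19 ± 0.280 for MMP10 (SE, adjusted p = 1.3e-05), both of which fell in KYSE180 and were above their controls in TE6 without being called there. MMP2, TIMP2 and PLAU fell in both lines and by more in KYSE180. MMP14 did not differ past the threshold (0.27, 95% interval -0.23 to 0.76, adjusted p = 0.38). For siTP63, 6 of 9 passed with 55.0% of all genes, among them PLAU at -1.79 ± 0.346 (SE, adjusted p = 2.8e-04) and TIMP2 at -1.40 ± 0.214 (SE, adjusted p = 2.7e-05), both less raised or not raised in TE6. The TIMP1 difference (0.72, adjusted p = 0.0051) was lost on the RPM scale (0.19, adjusted p = 0.41) and after upper-quartile rescaling (0.58, adjusted p = 0.12). KYSE150 against KYSE180 under siTP63 gave 2 of 6 (TIMP2 and MMP14) with 1.62% of genes, and KYSE150 against TE6 gave 0 of 6 with 3.86% of genes by limma, where MMP1, MMP2 and PLAU, 3 of the 6, had an unadjusted p under 0.05, as did 23.6% of all genes. Both differences between KYSE150 and KYSE180 were lost (0 of 6) without any 1 of 6 libraries, namely siCont replicate 1 or 2 of KYSE150, siCont replicate 1 or 2 of KYSE180 and siTP63 replicate 1 or 2 of KYSE180.

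Genes of the wider system were taken from a list of 42: 16 further MMPs, 5 inhibitors, 10 genes of plasminogen activation, 4 activators and partners and 7 ADAM sheddases, membrane enzymes that release surface proteins. Besides the largest rise and fall of each comparison, PLAUR in KYSE180, the sheddases under siTP63 and the MMPs in BRDT-OE are named after their values were seen. Under siBRDT in KYSE180, 8 of 25 tested fell and 3 rose, where 15.8% of all genes were called down and 14.5% up. MMP15, another membrane-anchored MMP, rose from 268 to 500.4 (0.90 ± 0.0805, SE, adjusted p = 2.6e-07), and the sheddase ADAM19 fell from 260 to 51.6 (-2.32 ± 0.140, SE, adjusted p = 5.1e-09). In plasminogen activation, the urokinase receptor PLAUR fell by 0.60 on the log2 scale, beside PLAU itself. In TE6 siBRDT lowered 5 of 26 and raised 3, against 18.1% of all genes called down and 15.6% up. PLAT, the tissue plasminogen activator, fell from 217 to 61.6 (-1.81 ± 0.217, SE, adjusted p = 4.3e-05), and PLAUR rose from 124 to 234 (0.92 ± 0.159, SE, adjusted p = 5.6e-04).

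siTP63 in KYSE180 raised 8 of 26 of the wider list and lowered 6, against 23.6% of all genes called up and 25.7% down. Of the 7 sheddases 6 rose, with ADAM17 going from 370 to 961 (1.36 ± 0.157, SE, adjusted p = 6.7e-08). The remaining sheddase, ADAM15, fell (-0.82, adjusted p = 2.5e-05). The protease inhibitor SERPINE2 fell from 360 to 120 (-1.58 ± 0.170, SE, adjusted p = 2.2e-08). In TE6 siTP63 raised 5 of 26 and lowered 7, where 18.3% of all genes were called up and 20.6% down. Among the sheddases 3 fell and 1 rose (ADAM8, 1.03, adjusted p = 0.011). PLAT fell there from 217 to 26.4 (-2.995 ± 0.217, SE, adjusted p = 4.8e-07) and S100A10, a surface partner of plasminogen, rose from 2334 to 6811 (1.55 ± 0.0875, SE, adjusted p = 8.3e-08). In KYSE150 siTP63 changed 0 of 23 past the threshold, with 0% of all genes called. BRDT-OE lowered 7 of 28 and raised 4, against 16.0% of all genes called down and 10.5% up. Of 8 further MMPs tested, 5 fell (MMP11, MMP15, MMP17, MMP19 and MMP28) and MMP3, the stromelysin closest in kind to MMP10, rose from 22.5 to 90.4 (1.96 ± 0.178, SE, adjusted p = 1.9e-05). SERPINB2, an inhibitor of urokinase, rose from 35.7 to 168 (2.19 ± 0.230, SE, adjusted p = 4.1e-05), and SERPINF2 fell from 205 to 104 (-0.96 ± 0.168, SE, adjusted p = 9.2e-04).

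Likeness of pattern was measured as the Euclidean distance between the 6 log2 fold changes of 2 genes, over 11337 genes tested in all 6 comparisons. Of all those genes PLAU was nearest to TIMP2, at a distance of 0.966, followed by ACVR1 at 1.07 and SYT1 at 1.13. PLAU itself was nearest to ARHGAP18 (0.627), ACVR1 (0.779) and CAMK2N1 (0.861). HAS3, LSM6 and COL7A1 came nearest to MMP1, at 2.69, 3.11 and 3.12, farther than the nearest genes of the other members. The MMP1 pattern holds a fitted value of -4.24 for 0 reads in TE6 siTP63. It also holds -2.34 in KYSE150, where the siTP63 libraries had 5 and 1 reads. The part of these low counts in its distances was not tested. MMP2 was nearest to SIRPA (0.865), NRAS (0.868) and TUBA1A (0.894), MMP14 to C6orf62 (0.503), MIATNB (0.573) and IL18BP (0.636), and TIMP1 to SNAP29 (0.277), PPP1CA (0.289) and MRPL33 (0.294). The 6 comparisons are not independent, because 2 of them share the TE6 controls.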

How the data were processed

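mRNA-seq libraries were made with an mRNA kit without molecular identifiers. According to the submitters' processing notes and the study's methods, reads were mapped to hg38 with STAR 2.6.0, counted with HTSeq 0.11.2 and normalised with DESeq2 1.24.0. The annotation and the strand setting of the counting are not given in the sources used here. The authors deposited 5 tables of the signal this gives, read counts per gene divided by a size factor per library, each table normalised alone. Whole reads were recovered from the steps of the values, and 100% of values came out whole within 0.01 reads. The libraries held 7582089 to 19372441 reads, and limits from counts of 0 (3 reads) cover counting error only.

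Values were tested as log2(value + 1), a scale that understates changes of low genes, after removing genes with a mean under 10. The mean was taken over all libraries of a fit, so a gene could pass through the group where it was high. The test was limma 3.58.1 with a mean-variance trend (R 4.3.3), with p-values adjusted by Benjamini-Hochberg over all genes tested. A gene was called at an adjusted p under 0.05 and a log2 fold change of 0.5 in size, the study's thresholds, and contrasts between fold changes were called at the p alone. The 3 TE6 groups shared 1 fit. Every library was mapped from its own label, and no 2 libraries agreed within sampling noise. Alternatives were another pseudocount (0.1), no filter, upper-quartile rescaling, a block for the replicate number and no fold limit. The recovered reads were also fitted with edgeR 4.0.16 or DESeq2 1.42.0. A trend on the length and GC content of the longest transcript was removed (91.9% to 92.6% of tested genes had both). Further alternatives were a fit of 2 TE6 groups only and leaving out each library. A library left alone in its group was then assumed to vary like the other groups. Scaling to equal library totals (RPM), a crossed replicate block in KYSE150 and the contrasts of siTP63 with siBRDT were added after seeing the data. The scripts were tested on simulated data. Named genes were the 10 members, BRDT and TP63, the called gene of the wider list with the largest rise and fall and a mean of at least 100, and the 3 genes nearest in pattern. Members, lists and rules were chosen with earlier results of these data known. Sequences came from RefSeq (GRCh38.p14), and gene positions and exon lengths from GENCODE release 44. Plots used Python 3.11.15 and matplotlib 3.10.9.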

Additional observations from a re-analysis of the deposited data

Results flagged for a closer look

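A difference between lines in the effect of the same knockdown, past the threshold in limma's test of the difference, was found for these genes, given as log2 fold change in the first line minus that in the second. For siBRDT, TE6 minus KYSE180, it was 2.48 for MMP1, 2.19 for MMP10, 1.37 for MMP9, 1.11 for MMP2, 1.05 for TIMP2, 1.00 for PLAU, 0.99 for MMP13 and 0.90 for TIMP1. MMP1 and MMP10 had values of -1.60 and -1.45 in KYSE180 and 0.88 and 0.74 in TE6, where they rest on 11 to 34 reads per library in the siCont and siBRDT groups. The adjusted p of MMP13 was 0.048 and that of MMP9 0.022, and both were lost under some alternatives.

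For siTP63, TE6 minus KYSE180, it was 1.91 for MMP10, 0.72 for TIMP1, -1.03 for MMP14, -1.40 for TIMP2, -1.79 for PLAU and -1.79 for MMP1, of which the last depends on a fitted value for 0 reads in TE6, and the TIMP1 value was 0.19 and no longer called on the RPM scale. For siTP63, KYSE150 minus KYSE180, it was -1.26 for MMP14 and -1.28 for TIMP2. The lines were handled in separate experiments and tables, so the line and its experiment cannot be told apart. With 2 or 3 libraries a group, Dixon's test for a library far from the others was not run.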

How the results depend on the processing

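Of 49 results on single members, 23 were called. Of these, 16 were called under every alternative that tested them and 7 lost the call under at least 1. Among the 16, MMP1 in TE6 siTP63 missed the filter, and so the test, in the fit of 2 TE6 groups. Of the 26 not called, 11 gained the call. MMP14, TIMP1 and TIMP2 in BRDT-OE and TIMP1 in TE6 siBRDT gained it only where the fold limit they had missed was dropped. PLAU and TIMP2 in KYSE150 siTP63 gained it only with the crossed replicate block. Among the 49 results, the sign turned under some alternative for 13, none of them called. Whether same-numbered libraries were paired is not given in the labels, and the main test used no pairing. Same-numbered libraries correlated at 0.15, 0.0047 and 0.18 in KYSE180 siBRDT, at -0.084, 0.047 and 0.028 in TE6 siBRDT, KYSE180 siTP63 and TE6 siTP63, at -0.70 in KYSE150 siTP63 and at 0.015 to 0.098 in BRDT-OE. The replicate block changed no member's call and gave 48 genes down and 89 up in KYSE150 siTP63, from 0. The crossed replicate block, chosen after seeing the data, gave 1774 down and 1626 up there, with 1 member down (MMP1) and 2 up (TIMP2 and PLAU). The cause of these and the following changes was not tested.

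In KYSE150 siTP63, DESeq2 called 256 genes down and 200 up (edgeR 0), removing the length and GC trend 453 and 309, and no filter 18 and 27. Without 1 library it was 77 to 177 down, 108 to 182 up and 0 to 1 member down (MMP1, without siCont replicate 1). Without a fold limit, BRDT-OE gave 3195 down and 3326 up with 2 members down, KYSE180 siBRDT 4044 and 3893, and TE6 siBRDT 2 members up. The RPM scale gave 792 up in BRDT-OE, where the median of all genes was -0.11, and 1460 down and 6728 up in KYSE180 siTP63 (median 0.52, and 0.22 after upper-quartile rescaling). In TE6 siBRDT the median was -0.14 on the RPM scale and 0.20 with no filter. Upper-quartile rescaling gave 586 genes and 0 members down in TE6 siBRDT and 1605 genes down in TE6 siTP63. The rise of MMP14 in TE6 siBRDT was lost (0 up) under DESeq2, length and GC, no filter, RPM and upper quartile, and length and GC gave 1291 genes up. TIMP2 in TE6 siTP63 was lost (0 up) under length and GC and upper quartile, and 1 member fell in a fit of 2 TE6 groups, where MMP1 missed the filter. Length and GC left 0 members up in KYSE180 siBRDT (MMP14 at 0.49). No filter left 2 members in TE6 siTP63 minus siBRDT, and a pseudocount of 0.1 gave 1 in KYSE150 minus TE6.

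Without 1 library, members up were 0 to 1 in KYSE180 siBRDT (0 without siCont replicate 3), 0 to 2 in TE6 siBRDT (0 without siCont replicate 1 or 2, 2 without siBRDT replicate 2) and 0 to 1 in TE6 siTP63, and members down 3 to 5 in KYSE180 siTP63 (5 without siCont replicate 2). Genes down in TE6 siBRDT were 1483 (without siCont replicate 2) to 2707. Differences called were 6 to 8 for TE6 minus KYSE180 under siBRDT and 6 to 7 under siTP63, 2 to 5 for TE6 siTP63 minus siBRDT, 0 to 3 for KYSE150 minus KYSE180 and 0 to 1 for KYSE150 minus TE6.

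Signs turned as follows. In BRDT-OE, MMP2 was -0.0080 with edgeR, -0.12 on the RPM scale and -0.073 with upper quartile, and PLAU 0.024 with length and GC. In KYSE150 siTP63, TIMP1 was 0.016 (DESeq2), 0.026 (edgeR), 0.084 (RPM) and 0.084 (upper quartile). In KYSE180 siTP63, MMP13 was 0.019 and TIMP1 0.058 on the RPM scale, and TIMP1 0.099 with length and GC. With length and GC, TE6 siBRDT gave TIMP1 at -0.28, and TE6 siTP63 MMP14 at -0.028 and TIMP1 at -0.13. Among differences, TIMP1 was 0.049 in TE6 siTP63 minus siBRDT and MMP13 -0.26 in TE6 minus KYSE180 siTP63 on the RPM scale, and MMP1 in KYSE150 minus KYSE180 was -0.28 (pseudocount 0.1), -0.31 (RPM) and -0.017 (upper quartile). Ranges without 1 library that crossed 0 were -0.048 to 0.060 (MMP2) and -0.084 to 0.0063 (PLAU) in BRDT-OE, -0.21 to 0.0043 (MMP14) and -0.52 to 0.48 (TIMP1) in KYSE150 siTP63, -0.046 to 0.63 (MMP9) in KYSE180 siTP63, -0.027 to 0.51 (MMP13) in TE6 siBRDT, and -0.82 to 0.35 (MMP13), -0.32 to 0.56 (MMP14) and -0.56 to 0.071 (PLAU) in TE6 siTP63. For differences they were -0.055 to 0.34 (TIMP1) in KYSE180 siTP63 minus siBRDT, -1.07 to 0.11 (MMP13), -0.43 to 0.21 (MMP9) and -0.092 to 0.0057 (TIMP1) in TE6 siTP63 minus siBRDT, -0.51 to 0.69 (MMP1) and -0.060 to 0.95 (TIMP1) in KYSE150 minus KYSE180, -0.67 to 0.21 (MMP14) and -0.78 to 0.23 (TIMP1) in KYSE150 minus TE6, and -0.33 to 0.84 (MMP13) in TE6 minus KYSE180 siTP63. Depth limits MMP7 in every line, and MMP1, MMP9, MMP10 and MMP13 in TE6 and KYSE150.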
